A study of Mus musculus with 21 samples.

Results

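At 8 months, the livers of mice that had lost Ezh2 in hepatocytes (E2KO) were compared with those of their controls (WT). The E2KO group has the genotype Ezh2fl/flAlb-Cre and the WT group Ezh2fl/fl without Cre, so both carry the floxed Ezh2 gene and both keep Ezh1. The background is mixed in all groups (129SV::FVB/N::C57BL/6), and neither 8-month group was treated. The albumin promoter drives Cre in hepatocytes and in the embryonic hepatoblasts that also form bile ducts, so liver cells of other origin, such as endothelial cells and macrophages, keep Ezh2. These are 2 of the 12 RNA-seq groups of a series of 21 samples, and the 12 groups cross 4 genotypes with 3 conditions. The groups used beside them are E1KO (Ezh1-/-, so without Cre) and DKO (Ezh1-/-Ezh2fl/flAlb-Cre) at 8 months, and WT and E2KO at 2 months and at 3 months with CCl4, a liver toxin. Each group has 1 deposited value per gene, in FPKM (fragments per kilobase of gene, scaled to library size). The titles of the 8-month samples name 2 replicates, but their separate values are not analysed here, so no value below carries a spread between animals. Genes of at least 1 FPKM in WT or E2KO at 8 months were kept, which gave 10183 of 22520. A gene under 1 FPKM in 1 of these groups was kept through the other alone and could only be higher there. The difference is that of log2(FPKM+1), E2KO minus WT, and a difference of at least 1 in size (2-fold on that scale) is counted without a test.

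EZH2 and EZH1 are the alternative catalytic subunits of Polycomb repressive complex 2 (PRC2), which places the repressive mark H3K27me3 on histones. EZH2 is the form of dividing cells, and EZH1 is more prominent in cells that have stopped dividing, such as most adult hepatocytes. The series asks what the liver loses with one or both of these enzymes, and E2KO at 8 months is the arm in which an aged liver still has Ezh1.

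Ezh2 RNA was 0.91 FPKM in WT and 0.79 in E2KO at 8 months, under the limit of 1 FPKM in both. It was 0.78 in E1KO, where the gene is intact, and 1.27 in DKO. Whole-gene values from whole liver do not show the deleted exons, so Ezh2 RNA neither shows nor contradicts the E2KO label. Ezh1 RNA was 2.04 FPKM in WT and 2.50 in E2KO. It was 0.06 in DKO, but 0.88 in the group labelled E1KO at 8 months, which goes against that label in part. That group, called E1KO below after its label, also holds skeletal muscle genes (527.01 FPKM summed over 15 genes, against 4.63 in WT and 4.77 in E2KO), and it enters no count at 8 months except where stated. Of 11 listed PRC2 subunits 9 were kept and none differed by 2-fold. Their median difference was 0.20 and 8 of the 9 were higher in E2KO (50.8% of all kept genes were). The largest of these differences was 0.67, for the accessory subunit gene Aebp2.

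The classical Polycomb targets stayed low. None of 39 Hox genes, patterning genes that Polycomb silences in adult tissues, reached 1 FPKM in WT or E2KO, and the highest value was 0.47. Of 83 listed developmental transcription factor genes, 8 were kept and none differed by 2-fold, with differences from -0.92 (Olig1) to 0.69 (Foxa3). Hoxa10 was 0.01 FPKM in both groups, and it was 2.60 in DKO. The cell cycle inhibitor gene Cdkn2a was 0.11 FPKM in WT, 0.06 in E2KO and 7.87 in DKO. The fetal liver genes Igf2bp3 (0.13 in both) and Gpc3 (0.30 and 0.43) were also low in WT and E2KO, against 1.43 and 3.25 FPKM in DKO. Of 20 listed fetal liver and oncofetal genes 3 were kept, and all 3 were lower in E2KO (48.8% of all kept genes were). Their median was -0.59, and only Ly6d was lower by 2-fold, at 2.07 FPKM in WT, 0.23 in E2KO and 142.34 in DKO. Ly6d was kept through its WT value alone, so it had to be lower in E2KO. Of 19 kept genes of collagen and matrix, none differed by 2-fold between E2KO and WT (median -0.11), and 8 were 2-fold higher in DKO than in the same WT value, as were 2.08% of all kept genes.

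Across all kept genes, 167 were at least 2-fold higher in E2KO at 8 months (1.64%) and 165 at least 2-fold lower (1.62%). The median difference was 0.009, and 83.3% of genes lay within 0.5 of 0. Over all kept genes 50.8% were higher in E2KO by any amount and 48.8% were lower, and these shares are the background for the lists below. The genes at the ends of this range were mostly miRNA, snoRNA and other short RNA genes. They made up 63 of the 167 higher and 30 of the 165 lower genes, though only 139 of the kept genes are of this kind. Snord52 was listed at 0 FPKM in WT and at 394.65 in E2KO, and Snord99 at 1048.47 in WT and 0 in E2KO. In all, 42 of the higher genes were listed at 0 in WT and 24 of the lower genes at 0 in E2KO. Of the 15 largest differences each way among genes of at least 5 FPKM, all of the higher and all but 1 of the lower were short RNA genes, the exception being Cfd. Very short genes take few fragments and a large length factor in FPKM, and the depth is unknown, so these values are given no further weight. Without the short RNA genes, 104 of 10044 genes were higher (1.04%) and 135 were lower (1.34%). The genes named from here on are of this kind, unless stated, and that choice was made after their values were seen.

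**Figure D1:**
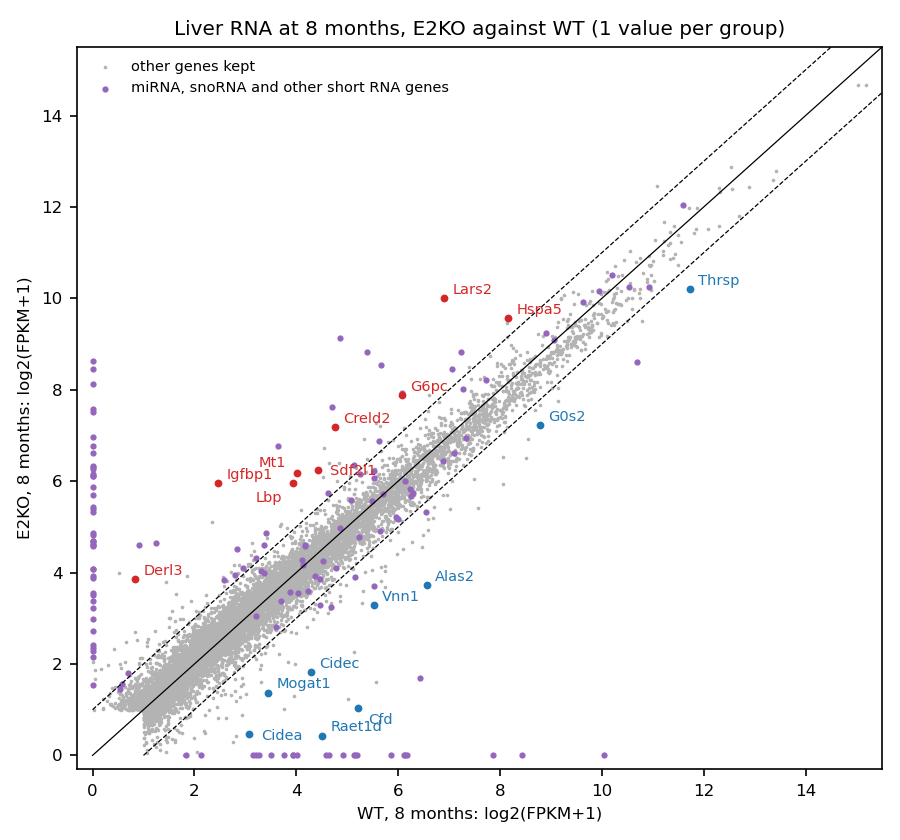
Level of each kept gene in E2KO (vertical axis) against WT (horizontal axis) at 8 months, both as log2(FPKM+1), 1 deposited value per group. The solid line marks equal values and the dashed lines a difference of 1. Short RNA genes (purple) line up on both axes where a group is listed at 0, red and blue points name genes that are higher or lower in E2KO, and most of the 10183 genes lie between the dashed lines.

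The gene list with the most members past 2-fold at 8 months was the unfolded protein response, in which chaperones and degradation factors of the endoplasmic reticulum are made when unfolded protein accumulates there. All 27 kept genes of the 28 listed were higher in E2KO than in WT at 8 months. Their median difference was 0.72, against 0.009 over all kept genes. By 2-fold, 9 of 27 were higher and 0 lower, against 1.64% and 1.62% of all kept genes. The 9 were Derl3, Creld2, Sdf2l1, Hyou1, Ern1, Hspa5, Herpud1, Dnajb9 and Pdia4. Derl3, at 0.79 FPKM in WT, was kept through its E2KO value alone and so had to be higher.

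Promoters of 4 of these genes are shown because a sequence known to bind the response's transcription factors in mammals can be read in them. They are from RefSeq on the build GRCm38.p6, run 250 bases before to 50 after the gene's start, and are written 5′ to 3′ in the direction of the gene. The files use mm9, and the promoters were matched by gene symbol. Capitals mark CCAAT followed 9 bases later by CCACG, the endoplasmic reticulum stress element, in Hspa5, Creld2 and Derl3. In Creld2 and Derl3 the match is on the opposite strand and reads as its reverse complement. In Herpud1 capitals mark ATTGG followed 1 base later by CCACG, a shorter form of the element. The match begins 65 bases before the start in Hspa5 (chr2:34771840-34772139, plus strand), 126 in Creld2 (chr15:88819396-88819695, plus strand), 156 in Derl3 (chr10:75893148-75893447, plus strand) and 52 in Herpud1 (chr8:94386179-94386478, plus strand).
Hspa5: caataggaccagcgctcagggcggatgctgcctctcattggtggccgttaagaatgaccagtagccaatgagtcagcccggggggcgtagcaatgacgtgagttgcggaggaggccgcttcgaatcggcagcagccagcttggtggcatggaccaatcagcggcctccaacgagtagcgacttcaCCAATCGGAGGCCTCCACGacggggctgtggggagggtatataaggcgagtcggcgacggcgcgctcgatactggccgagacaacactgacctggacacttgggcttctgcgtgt
Creld2: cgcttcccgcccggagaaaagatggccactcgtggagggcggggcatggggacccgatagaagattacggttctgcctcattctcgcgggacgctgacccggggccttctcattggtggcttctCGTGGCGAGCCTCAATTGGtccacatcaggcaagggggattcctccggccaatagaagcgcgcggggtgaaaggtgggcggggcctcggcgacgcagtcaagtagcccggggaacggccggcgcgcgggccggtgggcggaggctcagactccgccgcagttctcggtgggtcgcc
Derl3: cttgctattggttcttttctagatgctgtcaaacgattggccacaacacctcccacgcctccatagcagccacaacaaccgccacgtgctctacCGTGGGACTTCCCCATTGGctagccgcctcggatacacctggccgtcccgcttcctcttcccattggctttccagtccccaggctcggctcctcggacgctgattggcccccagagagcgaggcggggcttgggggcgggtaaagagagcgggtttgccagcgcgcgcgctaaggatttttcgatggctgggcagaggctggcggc
Herpud1: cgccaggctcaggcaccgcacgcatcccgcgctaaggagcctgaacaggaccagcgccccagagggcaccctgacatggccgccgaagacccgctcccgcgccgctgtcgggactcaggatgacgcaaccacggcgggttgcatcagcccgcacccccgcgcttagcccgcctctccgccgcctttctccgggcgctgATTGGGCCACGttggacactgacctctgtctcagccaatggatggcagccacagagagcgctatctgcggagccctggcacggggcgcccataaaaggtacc

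The longer motif, searched on both strands, is in 39 of 32851 promoters (0.119%) and the shorter in 12 (0.0365%). Among the kept unfolded protein response genes 24 have a promoter in the RefSeq table. The longer motif is in 8 of these: Hspa5, Creld2, Derl3, Dnajc3, Pdia6, Hsp90b1, Calr and Canx. The shorter is in Herpud1 and Dnajb11. Over all 15 kept genes with the longer motif, 11 were higher in E2KO and the median difference was 0.47. The 7 that are not on the list had a median of -0.05, with 3 higher, among them Syvn1, an endoplasmic reticulum ubiquitin ligase gene (24.07 FPKM in WT and 82.94 in E2KO). The match is a description of these letters and not of a bound site.

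Hspa5 encodes BiP, the main chaperone of the endoplasmic reticulum. At 8 months it was 285.08 FPKM in WT, 406.01 in E1KO, 754.52 in E2KO and 229.70 in DKO, a difference of 1.40 between E2KO and WT. E2KO was the highest of the 12 groups for Hspa5, while WT and DKO were the lowest of the 8-month groups. At 2 months the order was the other way, with 429.58 FPKM in WT and 271.60 in E2KO, and with CCl4 the values were close (579.62 and 576.19).

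Creld2, a chaperone-like gene induced by the response, was 25.99 FPKM in WT, 49.30 in E1KO, 144.63 in E2KO and 20.99 in DKO at 8 months, a difference of 2.43. At 2 months it was 51.05 in WT and 18.55 in E2KO. Hyou1, a large chaperone of the same compartment, was 22.02 in WT, 39.21 in E1KO, 67.36 in E2KO and 15.78 in DKO at 8 months. At 2 months Hyou1 was also lower in E2KO, at 22.67 FPKM against 46.18 in WT. Both genes thus had their highest value of the 4 groups in E2KO at 8 months, and their E2KO value was below WT at 2 months.

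Derl3, a channel subunit for removal of misfolded protein, was 0.79 FPKM in WT, 2.72 in E1KO, 13.45 in E2KO and 3.40 in DKO at 8 months. The WT value was the lowest of all 12 groups and the E2KO value the highest, above 10.35 in the next. Sdf2l1, which works with BiP, was 20.44 in WT, 38.83 in E1KO, 74.24 in E2KO and 17.69 in DKO. Herpud1, a degradation factor, was 281.28 in WT and 707.50 in E2KO. The sensor gene Ern1, which encodes IRE1, was 1.14 FPKM in WT and in DKO, 2.74 in E1KO and 4.85 in E2KO.

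Other members of the unfolded protein response differed less. The genes of the response's transcription factors differed by 0.08 (Atf4), 0.28 (Xbp1, total RNA, in which splicing is not seen), 0.41 (Atf6) and 0.93 (Ddit3, which encodes CHOP). Of the 27 genes, 25 had their highest 8-month value in E2KO and none the lowest, whereas over all kept genes E2KO was the highest of the 4 groups for 35.7% and the lowest for 24.8%. The median of the list was 0.22 in E1KO and -0.30 in DKO at 8 months, from the same WT value, against -0.025 and -0.065 over all kept genes. For E2KO it was -0.22 at 2 months and 0.11 with CCl4, against 0.011 and -0.002 over all kept genes. The cytosolic heat shock genes had a median of 0.40 over 14 genes, with 12 higher in E2KO and none by 2-fold, and the largest differences were those of Hspa1b (0.97) and Hsph1 (0.92).

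**Figure D2:**
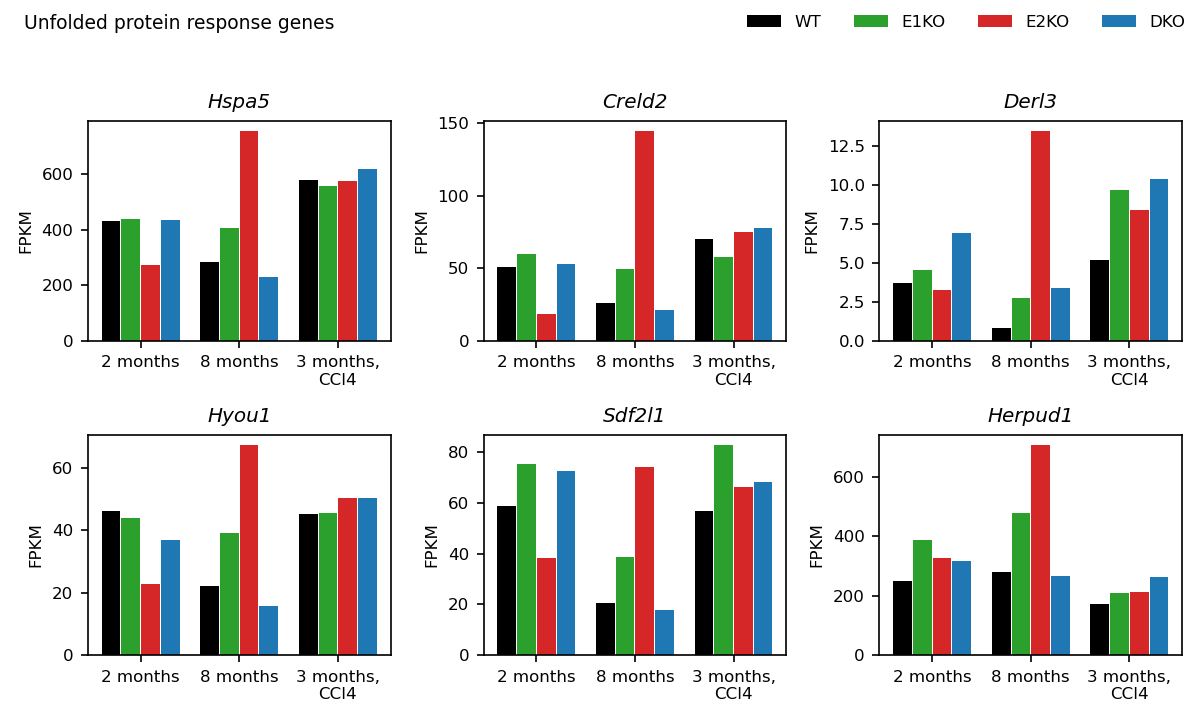
FPKM of 6 unfolded protein response genes in the 12 groups, 1 deposited value per bar with no error, for WT, E1KO, E2KO and DKO at 2 months, 8 months and 3 months with CCl4. For Hspa5, Creld2, Derl3, Hyou1 and Herpud1 the 8-month E2KO bar is the highest of the 12, and for Sdf2l1 it is the highest of the 8-month bars.

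Among the lists with lower genes, that of lipid droplets and fatty acid uptake had the most past 2-fold. Of its 28 kept genes, 20 were lower in E2KO (48.8% of all kept genes were) and 6 were lower by 2-fold (1.62% of all), with 0 higher by 2-fold. Cidea, Cidec, Mogat1, Fitm1, G0s2 and Fabp2 were the 6. Cidea was kept through its WT value alone, so it had to be lower in E2KO. In WT all 6 had more RNA at 8 months than at 2 months. The list's median was -0.27 in E2KO, and from the same WT value it was -0.26 in E1KO and -0.26 in DKO. Its summed level was 41412.48 FPKM in WT, 27505.69 in E1KO, 29113.62 in E2KO and 24177.47 in DKO. Most of the WT sum came from Fabp1 alone (37103.40 FPKM), so the sum says little about the other members. The lower median is thus not particular to E2KO.

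Cidea and Cidec encode proteins that enlarge lipid droplets by joining them. Cidea was 0.04 FPKM in both WT and E2KO at 2 months. At 8 months it was 7.39 in WT, 4.61 in E1KO, 0.39 in E2KO and 17.64 in DKO. Cidec was 18.57 in WT, 8.20 in E1KO, 2.53 in E2KO and 23.11 in DKO. For both genes E2KO was lowest and DKO highest of the 8-month groups, so the E2KO and DKO values lay on opposite sides of the WT value that they share.

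Mogat1, which makes diacylglycerol from monoacylglycerol, was 9.92 FPKM in WT, 5.63 in E1KO, 1.59 in E2KO and 7.88 in DKO at 8 months, against 0.17 in WT and 0.40 in E2KO at 2 months. Fitm1, a droplet formation gene, was 264.09 in WT, 129.41 in E1KO, 90.72 in E2KO and 89.54 in DKO. G0s2, which inhibits the main triglyceride lipase, was 437.17 in WT, 139.15 in E1KO, 148.51 in E2KO and 254.29 in DKO. Fabp2 was 437.62 in WT, 222.38 in E1KO, 200.94 in E2KO and 231.01 in DKO. For Fitm1, G0s2 and Fabp2 the WT value stood above the other 3, so these differences are not particular to E2KO. With E1KO as the reference G0s2 differed by 0.09 only.

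Further genes of lipid storage and uptake were lower by less than 2-fold. They were Pparg (14.88 FPKM in WT, 8.42 in E2KO), which encodes a driver of lipid storage, Cd36 (50.92 and 29.46), which encodes a fatty acid carrier, and the droplet coat gene Plin2 (244.98 and 162.16). Plin3, Plin5, Mttp and Fitm2 differed by 0.04 to 0.08. Among 23 lipogenic genes the median was -0.14. Thrsp, a lipogenic regulator, was 3377.20 FPKM in WT and 1183.46 in E2KO, with 1310.63 in E1KO and 1473.11 in DKO. Lpin1, which makes diacylglycerol and also acts as a transcriptional co-regulator, was higher, at 39.22 in WT and 120.95 in E2KO. Fasn, the fatty acid synthase gene, was 77.02 in WT and 51.09 in E2KO, and Scd1 was 2583.20 and 2373.02. Of 32 genes of fatty acid oxidation, 25 were lower (48.8% of all kept genes were), with a median of -0.13. Only the PPARA target Vnn1 was lower by 2-fold, at 44.76 FPKM in WT and 8.75 in E2KO.

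Cfd, which encodes the complement protease adipsin and is abundant in fat cells, had the largest difference outside the short RNA genes. At 8 months it was 35.93 FPKM in WT, 4.41 in E1KO, 1.06 in E2KO and 13.69 in DKO, and at 2 months it was 0.07 in WT and 0.40 in E2KO. Cfd and Cidec are also on the adipose list. The defining fat cell genes Adipoq (0.32 FPKM in WT, 0.12 in E2KO), Plin1 (0.03 and 0.02) and Lep (0.02 and 0.01) were near 0 in both groups, and Retn was 1.23 and 0.26. Of the 6 kept genes on the adipose list, 5 were lower in E2KO (48.8% of all kept genes were). The list's summed level was 7813.47 FPKM in WT, 5903.59 in E1KO, 4947.64 in E2KO and 4202.30 in DKO. Most of it came from Car3, which hepatocytes also make (6622.49 in WT and 3555.72 in E2KO). Car3 differed between WT and E2KO by more than the sum did.

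**Figure D3:**
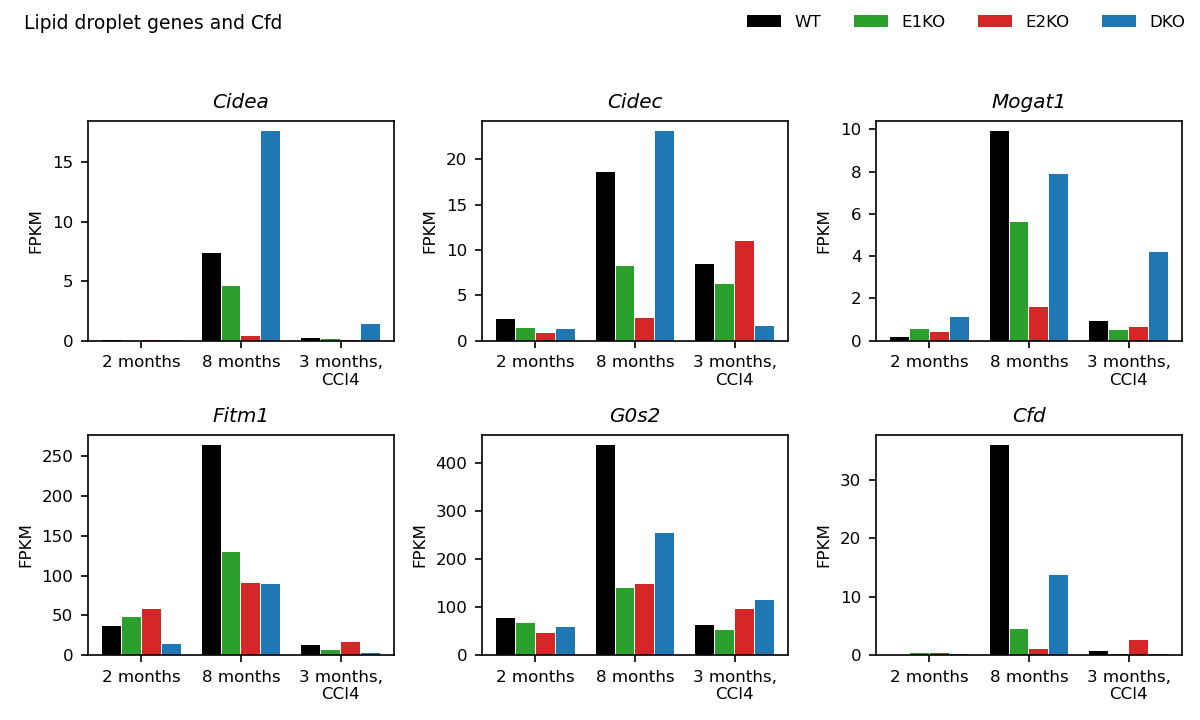
FPKM of 5 lipid droplet genes and of Cfd in the 12 groups, 1 deposited value per bar with no error, for WT, E1KO, E2KO and DKO at 2 months, 8 months and 3 months with CCl4. At 8 months the E2KO bar is the lowest of the 4 for Cidea, Cidec, Mogat1 and Cfd, while for Fitm1 and G0s2 the WT bar stands above the other 3.

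Igfbp1 and G6pc led the gluconeogenesis and glycogen list, in which a minority of genes passed 2-fold. Of 18 kept genes of gluconeogenesis and glycogen, 13 were higher in E2KO at 8 months, against 50.8% of all kept genes, and 5 were lower. By 2-fold 5 were higher, against 1.64% of all, and 0 lower, with a median of 0.25. Igfbp1, an insulin-repressed secreted protein that binds insulin-like growth factors, was 4.52 FPKM in WT, 12.56 in E1KO, 61.45 in E2KO and 20.72 in DKO. G6pc, which encodes the enzyme that releases free glucose, was 66.30 in WT, 105.25 in E1KO, 236.53 in E2KO and 111.32 in DKO. For both, WT was the lowest and E2KO the highest of the 4 groups.

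The other 3 past 2-fold were the glycogen-targeting gene Ppp1r3g (1.96 FPKM in WT, 7.89 in E2KO), the glycolytic regulator Pfkfb3 (4.90 and 13.90) and the insulin receptor substrate gene Irs2 (0.15 and 1.36). Irs2 was kept through its E2KO value alone, so it had to be higher. Pck1, the other well-known gluconeogenic gene, differed by 0.30. At 2 months Igfbp1 was 14.24 FPKM in WT and 25.99 in E2KO, and G6pc 102.42 and 175.83, differences in the same direction and below 2-fold. With CCl4, Igfbp1 was 69.41 in WT and 64.26 in E2KO. Txnip, a glucose-responsive gene, was 27.64 in WT and 82.94 in E2KO at 8 months. The feeding state of the animals is not given in the labels.

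Genes that respond to glucocorticoid and metals had a median of 0.75 over 15 genes, with 14 higher (50.8% of all kept genes were) and 3 of them by 2-fold (1.64% of all). From the same WT value the list's median was 0.56 in E1KO and 0.45 in DKO, so it was above 0 in all 3 groups. Mt1, a metal-binding metallothionein gene, was 15.06 FPKM in WT, 27.19 in E1KO, 71.34 in E2KO and 834.17 in DKO. At 2 months Mt1 was 1824.73 in WT and 60.37 in E2KO, so it varied between groups by far more than the 8-month difference. Fkbp5, a glucocorticoid-induced chaperone gene, was 7.76 in WT and 24.14 in E2KO at 8 months, and 31.04 and 5.25 at 2 months. Gadd45g was the third, at 16.08 and 40.38. Tat, the tyrosine aminotransferase gene, differed by 0.80.

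Time of day sets many liver genes, and the labels give none. Of 25 kept clock and clock-output genes, 18 were higher in E2KO (50.8% of all kept genes were) and 7 lower, with a median of 0.25. Only Rgs16 differed by 2-fold, at 22.34 FPKM in WT, 157.11 in E1KO, 104.41 in E2KO and 16.42 in DKO. The core clock genes Per2 and Cry1 differed by -0.06 and -0.09, the clock output gene Dbp by 0.20, Nr1d1 by 0.70 and Per1 by 0.75. Whether the hour of collection had a part in the metabolic differences was not tested.

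Interferon and antigen presentation genes were mostly lower in E2KO, while macrophage markers and chemokine genes were not. Of 32 kept interferon-stimulated genes, 28 were lower in E2KO at 8 months (48.8% of all kept genes were), 4 of them by 2-fold (1.62% of all) and 0 higher by 2-fold, with a median of -0.47. Of 14 kept chemokine and cytokine genes 7 were higher and 7 lower. Only Il1b differed by 2-fold (0.27 FPKM in WT and 1.58 in E2KO), and it was kept through its E2KO value alone, so it had to be higher. E2KO had the lowest value of the 4 groups for 28 of the 32, against 24.8% of all kept genes. Psmb9, an immunoproteasome subunit gene, was 27.99 FPKM in WT, 21.50 in E1KO, 9.39 in E2KO and 26.62 in DKO. Isg15, a ubiquitin-like antiviral gene, was 20.07 in WT, 12.34 in E1KO, 7.81 in E2KO and 26.11 in DKO. Oasl1 and Ifit3 were the other 2, at 4.72 and 4.93 FPKM in WT and 1.5 and 1.68 in E2KO. For all 4 genes E2KO was the lowest of the 8-month groups.

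All 22 kept genes of MHC and antigen presentation were lower, against 48.8% of all kept genes, with a median of -0.31. By 2-fold 2 were lower, Cd1d2 and H2-Q1, against 1.62% of all. H2-K1, a class I gene, was 892.22 FPKM in WT and 679.30 in E2KO, and B2m, its shared light chain, 3696.73 and 2940.34. Cd1d2 was 6.01 in WT and 1.27 in E2KO, and only 0.04 in E1KO and 0.05 in DKO. The 2-month values were 3.26 in WT and 4.65 in E2KO, and the gene was at most 0.08 in any E1KO or DKO group of the 3 conditions, which sets both groups without Ezh1 apart from WT and E2KO. MHC genes and Cd1d2 differ between inbred strains, and these animals are of mixed background, so strain and genotype cannot be told apart here. Raet1d and Raet1e, ligands of the lymphocyte receptor NKG2D and close copies that can share reads, were 21.73 and 5.75 FPKM in WT and 0.35 and 0.23 in E2KO.

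In whole liver, fewer cells of a type and less RNA per cell cannot be told apart. The 21 kept sinusoidal endothelial markers had a median of -0.30 with 19 lower (48.8% of all kept genes were). Their summed level, over all listed, was 190.56 FPKM in WT, 144.20 in E1KO, 138.34 in E2KO and 139.15 in DKO. Macrophage and Kupffer cell markers had a median of 0.15 over 23 genes and summed to 175.85 FPKM in WT and 194.08 in E2KO. Summed stellate cell markers were 131.09 in WT and 107.20 in E2KO, and only Tpm2 differed by 2-fold (12.61 FPKM in WT and 1.01 in E2KO). Neutrophil markers summed to 9.40 and 8.85, while 2 of the 3 kept were higher (median 0.56). Lymphocyte markers summed to 53.97 and 49.70, and 2 of the 3 kept were lower (median -0.15). The part of cell makeup in the lower interferon and MHC genes was not tested. The hepatocyte identity of the tissue was plain in both groups, with all 34 secreted protein genes that have a value kept. They summed to 72727.19 FPKM in WT and 63211.34 in E2KO, while 24 of the 34 were higher in E2KO (median 0.14).

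Acute phase genes went both ways, with a median of 0.18 over 31 genes. Lbp, the lipopolysaccharide-binding protein gene, was 14.35 FPKM in WT, 21.39 in E1KO, 61.32 in E2KO and 17.24 in DKO at 8 months, and the interleukin-6 receptor gene Il6ra was 2.84 in WT and 9.37 in E2KO. Saa1 was 128.61 in WT and 41.08 in E2KO, Saa2 49.33 and 13.17, and Hamp2, a gene of the hepcidin family, 565.92 and 263.44. Saa1 and Saa2 are close copies, and reads may be split between them. At 2 months Saa1 ran from 2517.31 FPKM in WT to 465.81 in E2KO, a larger span than at 8 months.

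Alas2, the heme synthesis enzyme of red cell precursors, was 93.59 FPKM in WT, 64.20 in E1KO, 12.24 in E2KO and 43.79 in DKO at 8 months. At 2 months it was 78.96 in WT and 104.12 in E2KO, and with CCl4 45.99 and 45.00. The E2KO value at 8 months was the lowest of the 12 groups. The globin genes did not share one direction, with Hba-a2 at 57.49 FPKM in WT and 30.09 in E2KO, Hba-a1 at 13.10 and 30.46, and Hbb-b2 at 10.85 and 10.39. Hba-a1 and Hba-a2 are near-identical, so the split between them is uncertain. The 9 listed erythroid genes that have a value summed to 225.06 FPKM in WT and 151.49 in E2KO. Alas2 is 1 of them, so this sum holds the Alas2 difference itself. Of the 6 kept erythroid genes 3 were higher and 3 lower in E2KO, with a median of 0.18. The part of red cell precursors in the Alas2 difference was not tested.

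Sex-biased liver genes showed no common direction, with medians of 0.05 over 23 male-biased and -0.09 over 25 female-biased genes. The labels do not give the sex of the animals, and Xist was between 0.01 and 0.03 FPKM in all 12 groups. Among the male-biased genes, Cyp4a12a, a fatty acid hydroxylase gene, was 361.77 FPKM in WT, 217.08 in E1KO, 90.32 in E2KO and 157.81 in DKO. Serpina12 was 38.36 in WT, 12.57 in E1KO, 9.16 in E2KO and 4.06 in DKO. In the same list Selenbp2 was higher, at 4.11 in WT, 37.22 in E1KO, 33.65 in E2KO and 16.68 in DKO. So was Mup20, a major urinary protein gene with close copies, at 2165.74 in WT, 4920.75 in E1KO, 5660.76 in E2KO and 1409.55 in DKO. For Cyp4a12a and Serpina12 WT was the highest of the 8-month groups, and for Selenbp2 the lowest. The direction of these differences is thus not particular to E2KO, and for Mup20 E1KO shared it. Cyp2a4, a female-biased gene, was 1.65 in WT and 1.60 in E2KO, and 123.56 in DKO.

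Genes of the respiratory chain and the ribosome were lower by small amounts. Of 32 respiratory chain genes 29 were lower in E2KO at 8 months (48.8% of all kept genes were), none by 2-fold, with a median of -0.44. Ndufb3 had the largest difference (279.40 FPKM in WT and 145.57 in E2KO). Of 30 ribosomal protein genes 26 were lower (48.8% of all kept genes were), with a median of -0.31. The medians of both lists were also below 0 in E1KO (-0.34 and -0.36) and DKO (-0.36 and -0.30) at 8 months, from the same WT value.

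Lars2, which encodes a mitochondrial leucine tRNA ligase, was 118.62 FPKM in WT, 86.84 in E1KO, 1029.83 in E2KO and 90.74 in DKO at 8 months. It varied between groups at 2 months too, at 402.95 in WT and 78.24 in E2KO. The short structural RNAs Rpph1 (1.36 FPKM in WT, 23.94 in E2KO) and Rmrp (0.89 and 23.21) were high in the same group at 8 months. The labels describe an mRNA library made from total RNA and give no measure of RNA quality, and the part of library make-up in these values was not tested.

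**Figure D4:**
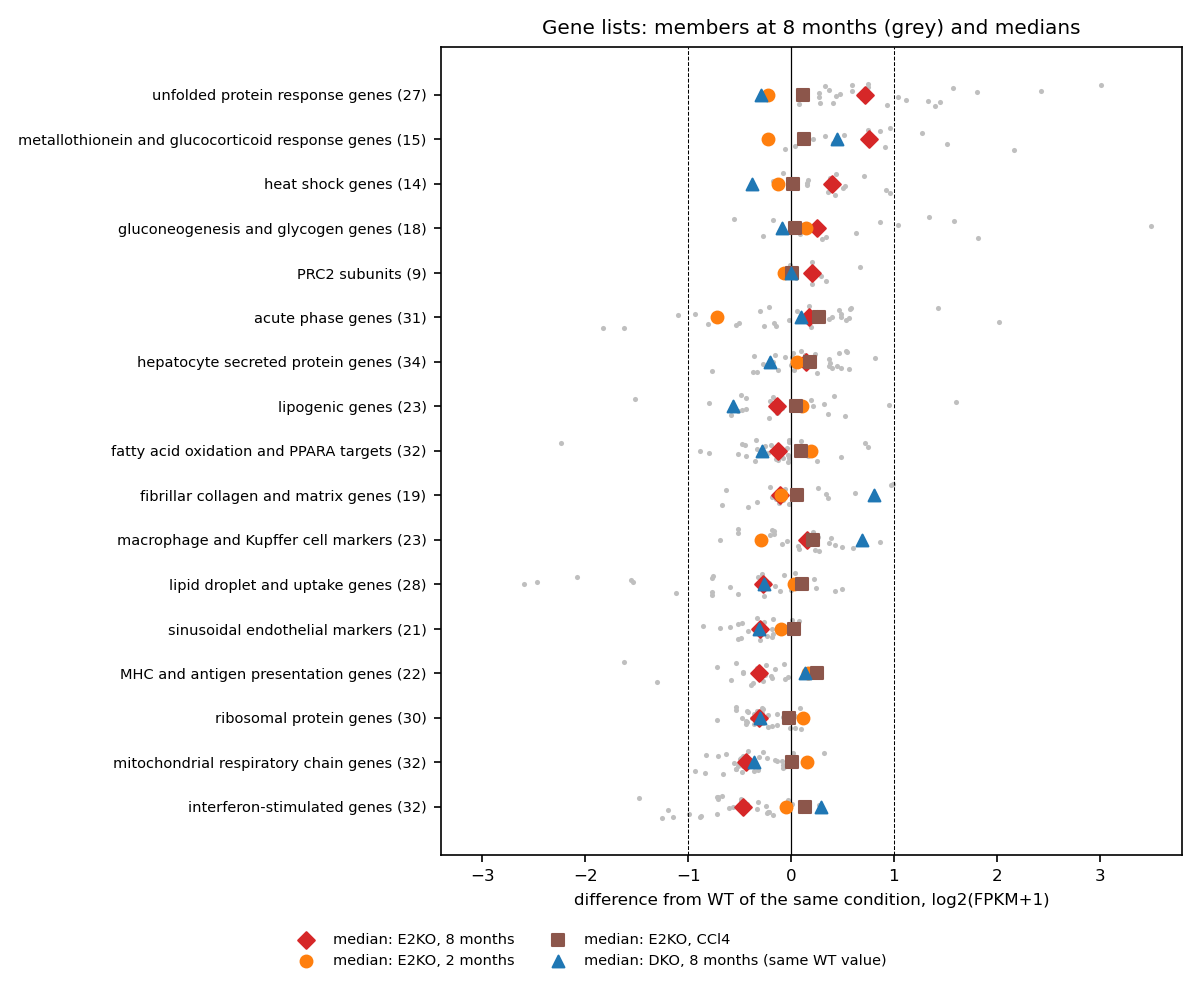
Differences of log2(FPKM+1) from WT of the same condition for 17 gene lists, with the number of kept genes in brackets. Grey points are the genes at 8 months in E2KO, coloured symbols the list medians in 4 comparisons, and dashed lines a difference of 1. At 8 months the E2KO median is 0.72 for the unfolded protein response and -0.47 for interferon-stimulated genes, against -0.22 and -0.05 at 2 months.

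A value that sets E2KO apart from WT can reflect either group, so each was also set against the other 8-month groups. Without short RNA genes, E2KO was at least 2-fold above each of the other 3 groups for 19 genes (0.189%) and 2-fold below each for 31 (0.309%). The higher genes included Derl3, Creld2, Igfbp1, Lbp, G6pc, Txnip, Lars2 and Csad, a taurine synthesis gene at 48.72 FPKM in WT and 146.01 in E2KO. The lower included Cidea, Cidec, Mogat1, Cfd, Alas2, Raet1d, Psmb9 and Bhmt, a betaine-using methyltransferase gene at 1776.30 and 726.79. In the same way WT was 2-fold above each of the others for 19 genes (0.189%) and 2-fold below each for 8 (0.0796%). Among the genes past 2-fold, the E2KO value lay outside the range of all other 11 groups for 45 of the 104 higher and 54 of the 135 lower. The WT value did so for 27 and 59. These genes were chosen for a difference between the 2 groups, which favours an extreme value in either. The share over all kept genes was not counted, so nothing is read from these counts. The E1KO values set a limit here for genes that muscle expresses, such as Tpm2 (38.88 FPKM in E1KO).

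The comparison with DKO asks whether an 8-month difference seen with Ezh2 loss alone was there when Ezh1 was missing too. Both differences use the same WT value, which favours a shared direction. In DKO 212 of the 10183 genes were 2-fold higher than WT (2.08%) and 141 were 2-fold lower (1.38%). Of the 167 genes higher in E2KO, 39 were also 2-fold higher in DKO (23.4% of the E2KO list and 18.4% of the DKO list) and 6 were 2-fold lower. Of the 165 lower genes, 52 were also lower in DKO (31.5% and 36.9%) and 10 were higher. Without short RNA genes the counts in the same direction were 17 of 104 and 33 of 135. Cidea was among the genes that were past 2-fold in opposite directions. Of the unfolded protein response genes past 2-fold in E2KO, Derl3 was 2-fold higher in DKO than in WT, at 3.40 FPKM.

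The comparisons at 2 months and with CCl4 share no values with 8 months. At 2 months 28 of the same 10183 genes were 2-fold higher in E2KO than in WT (0.275%) and 72 lower (0.707%), and with CCl4 36 were higher (0.354%) and 47 lower (0.462%). Of the genes higher at 8 months, 6 were also higher at 2 months (3.59% of the 8-month list and 21.4% of the 2-month list) and 18 were lower. With CCl4, 11 of them were higher (6.59% and 30.6%) and 16 were lower. Of the genes lower at 8 months, 10 were also lower at 2 months (6.06% and 13.9%) and 5 were higher. With CCl4, 5 of them were lower (3.03% and 10.6%) and 12 were higher. Without short RNA genes these counts were 0 and 1 of 104 higher genes and 3 and 3 of 135 lower genes. Mir3112 was the sole gene past 2-fold in 1 direction in all 3 conditions, at 34.06 FPKM in WT and 81.02 in E2KO at 8 months, and it is a short RNA gene.

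A test is possible only across conditions. In a limma fit over all 12 groups with additive terms for genotype and condition, E2KO against WT called 0 of 10183 genes at an adjusted p under 0.05 (0%), and 160 had an unadjusted p under 0.05. Limma with 1 more term for E2KO at 8 months called 12 genes (0.118%), 11 higher and 1 lower, which asks whether the 8-month value departs from what the other groups predict. The spread in both fits is the departure from additivity and not that between animals. All 11 higher genes were under 1 FPKM in WT at 8 months and were kept through the E2KO value alone, so they had to differ, and their p-values in this fit are not used.

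Alas2 was the called gene that was lower, with an estimate of -2.94 (SE 0.26) and a limma adjusted p of 0.0066. It passed in 7 of 10 alternatives, with adjusted p from 0.00839 to 0.197. For the higher genes, the limma fit with no filter on low values avoids that selection. It takes in 20115 genes, however, and also called Ifna2 at an estimate of only 0.12 (SE 0.01). A pass of a low gene there thus carries little weight. There Derl3 had an estimate of 2.44 (SE 0.32) and did not pass (limma adjusted p = 0.151). Abhd1, an alpha/beta hydrolase family gene, was 4.57 FPKM in E2KO at 8 months and 0.29 to 0.80 in the other 11 groups (without the filter an estimate of 1.79, SE 0.17, limma adjusted p = 0.0361). Over all alternatives its adjusted p ran from 0.0103 to 0.213, and it passed in 5 of 9. All of these alternatives but the one without the filter keep genes by an 8-month filter, so the passes of Abhd1 in them are not used. The other higher genes called were 3 genes of at most 3.14 FPKM and 6 short RNA genes, of which 5 were listed at 0 in all other 11 groups. A limma p for those rests on the spread borrowed from other genes.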

How the data were processed

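RNA-seq of mouse liver was deposited by the authors as 1 table of FPKM values, 22520 genes by 12 groups, to 2 decimals. Per the labels' protocols, the libraries were TruSeq mRNA preparations from total RNA, with SuperScript II for cDNA. The submitters' processing notes name CASAVA, TopHat, Cufflinks, BWA, SICER and HOMER and the mouse assembly mm9, but tool roles, tool versions and the way replicates were combined are not stated there. Counts cannot be recovered, so the sequencing depth behind a value is unknown. Columns summed to 531761 to 674119 FPKM (674119 in WT and 588420 in E2KO at 8 months), with 12.2% to 19.1% in the 10 most abundant genes. The ChIP-seq samples are not analysed here, and how far strand was used in counting is not stated, so overlapping genes are uncertain.

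From the table, log2(FPKM+1) was taken with a pseudocount of 1 for genes of at least 1 FPKM in WT or E2KO at 8 months, and differences of at least 1 were counted. Fold counts are on that scale, which understates the change of low genes. Short RNA genes were recognised by symbol. Limma 3.58.1 (R 4.3.3, moderated with a mean-variance trend, Benjamini-Hochberg over all kept genes, two-sided) was fitted to the 12 groups with 6 residual degrees of freedom, or 5 with the term for E2KO at 8 months, after it was tested on simulated data. The named genes were Ezh1 and Ezh2, the 15 largest differences each way among genes of at least 5 FPKM, up to 6 members of each list past 2-fold, genes past 2-fold in all 3 conditions and the limma calls. Members named below 2-fold, and genes apart from all other 8-month groups, were chosen after their values were seen. The members and all 50 gene lists were chosen with earlier results of these data known. Promoters and gene names came from RefSeq tables of GRCm38.p6, matched by symbol.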

Additional observations from a re-analysis of the deposited data

Results flagged for a closer look

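In limma's fit with a term for E2KO at 8 months, 12 genes passed an adjusted p under 0.05. Their E2KO value at 8 months departed from what the other 11 groups predict, E1KO and DKO included, with additive genotype and condition. For all but Alas2 the filter favours the call, since these 11 genes were under 1 FPKM in WT and were kept through the E2KO value at 8 months alone. With no filter on low values Derl3 did not pass (limma adjusted p = 0.151) and the other 11 did. That fit also called Ifna2 at an estimate of only 0.12 (SE 0.01), so a pass of a low gene there carries little weight. On the log2 scale the estimates were -2.94 for Alas2, 2.44 for Derl3, 1.79 for Abhd1, 2.10 for A330049N07Rik, 1.77 for LOC624759 and 1.09 for 1500015A07Rik. The short RNA genes had 6.27 (Mir664), 5.32 (Mir421), 4.08 (Mir676), 3.88 (Mirlet7a-1), 3.15 (Snord17) and 2.35 (Mir760). Alas2 passed in 7 of 10 alternatives (limma adjusted p 0.00839 to 0.197), and Derl3 in 1 of 10 (0.0287 to 0.246). In 9 alternatives each, 1500015A07Rik passed in 1 (adjusted p up to 0.413), and Abhd1, A330049N07Rik, LOC624759 and Snord17 in 5 (up to 0.213, 0.246, 0.104 and 0.103). All alternatives but the one with no filter on low values keep genes by an 8-month filter. Passes of the 11 higher genes in those alternatives are therefore not used. A330049N07Rik was 3.14 FPKM in E2KO at 8 months and at most 0.35 in the other 11 groups. LOC624759 was 2.69 against at most 0.21. Mir664, Mir421, Mir676, Mirlet7a-1 and Mir760 were listed at 0 in the other 11 groups.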

How the results depend on the processing

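No paired analysis was possible because each group has 1 column and no replicate number. Against 167 higher and 165 lower genes at 8 months, a pseudocount of 0.1 FPKM gave 292 and 266, a 1.5-fold threshold 565 and 653, and a 3-fold threshold 77 and 70. Leaving out short RNA genes gave 104 and 135 and E1KO at 8 months as the reference 135 and 81, both chosen after the data were seen. Higher genes were 50.3% of those counted on the deposited scale, 47.8% after median-ratio scaling and 50.3% after quantile normalisation, and those scalings set the median of all genes at -0.020 and -0.002. The genes higher at 2 months as well as at 8 months numbered 12 with a pseudocount of 0.1, 34 at 1.5-fold and 0 without short RNA genes, and the lower ones 19, 37 and 3. With CCl4 the higher ones numbered 21 at 1.5-fold and 1 without short RNA genes, and the lower ones 9 with a pseudocount of 0.1, 14 and 3. In DKO the higher ones numbered 70 with a pseudocount of 0.1, 103 at 1.5-fold and 17 without short RNA genes, and the lower ones 139 at 1.5-fold and 33 without. The cause of these shifts was not tested. The additive limma fit called 0 genes in all 11 alternatives, with 91 to 333 at an unadjusted p under 0.05. The term for E2KO at 8 months called 5 genes at 5 FPKM or more, 37 with only WT and E2KO groups (1 residual degree of freedom) and 4 without short RNA genes, and 9 to 14 in the other alternatives.

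Of 140 named genes past 2-fold, 0 reversed and 7 dropped below 2-fold under the planned settings, all 7 under quantile normalisation. With E1KO as the reference 46 dropped below 2-fold and 8 changed sign: G0s2 (0.09), Gsta1 (0.14), Cd1d2 (1.13), Selenbp2 (-0.14), Rgs16 (-0.58), Myc (0.78), Accn5 (1.49) and Mme (-0.13). Among lists with a median at least 0.25 from 0, that of cell cycle genes (-0.33) changed sign at 5 FPKM or more (0.15). With E1KO as the reference, so did pericentral genes (0.30, then -0.00) and ribosomal protein genes (-0.31, then 0.05). Sign changes of lists nearer 0 were not counted.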

Other observations

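Other metabolic genes differed singly. Ugt1a1, the bilirubin-conjugating enzyme gene, was 46.32 FPKM in WT, 121.56 in E1KO, 153.72 in E2KO and 51.43 in DKO at 8 months. Its neighbours Ugt1a5 and Ugt1a6a, which share exons with it so that reads are hard to assign, were also higher in E2KO, at 19.83 against 7.65 and 14.97 against 6.19. For Ugt1a1 the values of WT and DKO lay close together and so did those of E1KO and E2KO. Mia2, a gene of protein export from the endoplasmic reticulum, had the same arrangement, with 2.63 in WT, 2.61 in DKO, 10.20 in E1KO and 14.24 in E2KO. Cps1, the first enzyme of the urea cycle, was 167.16 in WT, 127.85 in DKO, 331.87 in E1KO and 362.59 in E2KO.

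Cyp8b1, which sets the cholic acid share of bile acids, was 123.74 FPKM in WT and 50.74 in E2KO, with 55.94 in E1KO and 21.39 in DKO. Tpmt, which methylates thiopurine drugs, was 87.72 in WT and 22.66 in E2KO. Socs2, a feedback inhibitor of growth hormone signalling, was 7.93 in WT and 18.28 in E2KO at 8 months, and 19.51 and 5.93 at 2 months.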
